A study of Mus musculus with 12 samples.

Results

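The genes described here encode energy enzymes that come in a muscle form and a general form. They were taken from a list of 10 genes, of which 9 had a probe set under their symbol among 19937 genes on the arrays. Muscle forms were Ckm, Ckmt2, Ampd1, Pygm, Pfkm, Pgam2 and Eno3, and general forms were Ckb and Pgam1. Eno1, the general enolase, had no probe set with that symbol alone and was not analysed here. The probe set annotated as Pgam1 may instead measure the copy Pgam1-ps2, for the reason given with its values, so every result on Pgam1 is given for the probe set rather than the gene.

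The study concerns YAP1, a transcriptional coactivator held in check by Hippo signalling, in rhabdomyosarcoma, a cancer whose cells show traits of the skeletal muscle lineage. Tumours were compared at day 0 of doxycycline removal (TUM), at 3 days (OFF3) and at 6 days after removal (OFF6), with hindlimb muscle as control (CTL), 3 arrays in each group. Every sample carries the genotype Myf5Cre, R26-LSL-rtTA and Col1a-Teto-hYAP1 S127A on C57BL/6, so that doxycycline turns on a mutant human YAP1 in cells with a history of Myf5, a gene of the muscle lineage. For TUM, OFF3 and OFF6, interstitial muscle cells of donor mice given doxycycline for 4 weeks were placed in the gastrocnemius of NOD/SCID hosts that also received it. CTL muscle came from mice that were not induced. TUM and CTL therefore differ in doxycycline, transplantation, host and tissue at once, and the share of each cannot be told apart. The labels used here give no age, and do not say whether tumours of a group came from separate donors or hosts.

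Contracting muscle uses energy faster than mitochondria can restore it. Creatine kinase refills ATP from phosphocreatine, AMP deaminase removes AMP, and glycogen phosphorylase, phosphofructokinase, phosphoglycerate mutase and enolase pass glycogen down glycolysis. For each of these steps, adult fibres use a gene copy of their own, while myoblasts, dividing cells and most other tissues use a general copy. The exchange of general for muscle forms is a known part of fibre maturation.

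Promoters are shown as examples for the pair Ckm and Ckb and for Pgam2 and Pygm. The muscle forms shown all hold the E-box CAGCTG, and the windows of Eno3 and Pfkm, which lack it, are not shown. Each window is the 250 bases before the listed start of the gene in RefSeq, build GRCm38.p6, written 5′ to 3′ on the gene's strand. Pgam2 lies at chr11:5803797-5804046 (minus strand), Ckm at chr7:19410844-19411093 (plus), Ckb at chr12:111672339-111672588 (minus) and Pygm at chr19:6384158-6384407 (plus). Capitals mark matches on either strand to the E-box CAGCTG, which myogenic factors are known to bind, to the M-CAT motif CATTCC, which the YAP partners of the TEAD family are known to bind, and to the consensus of the muscle factor MEF2.
Pgam2: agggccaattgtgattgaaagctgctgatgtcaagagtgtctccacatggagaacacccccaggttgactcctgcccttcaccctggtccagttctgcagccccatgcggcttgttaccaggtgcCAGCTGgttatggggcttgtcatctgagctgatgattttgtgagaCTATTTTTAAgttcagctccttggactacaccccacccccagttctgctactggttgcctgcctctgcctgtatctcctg
Ckm: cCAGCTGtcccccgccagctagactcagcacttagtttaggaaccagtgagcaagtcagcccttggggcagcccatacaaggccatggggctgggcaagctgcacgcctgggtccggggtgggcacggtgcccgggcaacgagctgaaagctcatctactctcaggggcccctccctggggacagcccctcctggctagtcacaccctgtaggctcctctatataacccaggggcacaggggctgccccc
Ckb: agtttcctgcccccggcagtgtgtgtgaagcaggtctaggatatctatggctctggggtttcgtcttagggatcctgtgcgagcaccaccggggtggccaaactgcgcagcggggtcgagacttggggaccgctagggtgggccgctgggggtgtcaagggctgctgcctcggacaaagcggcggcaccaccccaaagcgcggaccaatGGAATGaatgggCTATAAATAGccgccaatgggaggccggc
Pygm: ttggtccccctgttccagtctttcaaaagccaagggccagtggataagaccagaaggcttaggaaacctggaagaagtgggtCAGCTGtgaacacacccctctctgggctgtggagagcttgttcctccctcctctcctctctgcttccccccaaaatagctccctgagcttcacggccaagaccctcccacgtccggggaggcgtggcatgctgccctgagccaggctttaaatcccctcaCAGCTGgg

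The E-box CAGCTG was found in Pgam2, Ckm, Ckmt2 and, at 2 places, Pygm, and in none of the windows of Pgam1, Ckb, Eno3, Eno1, which has 3 listed starts, or Pfkm, which has 4. It was present in 13% of 32851 promoter windows of the same length. The MEF2 consensus matched Pgam2 80 bases before its start and Ckb 29 bases before its start, against 2.92% of all windows. In Ckb it overlapped a match to the TATA box TATAAA, a motif found in 12.4% of windows. CATTCC matched Ckb, Eno3 and 2 of the 3 windows of Eno1, a gene not measured here, against 12.6% of windows. The looser E-box CANNTG, which includes CAGCTG, had 5 matches in Pgam2, 4 in Ckmt2, 2 in Pygm, 1 each in Ckm and Eno3, 0 to 3 in the windows of Pfkm, 0 to 2 in those of Eno1, and 0 in Ckb and Pgam1. It occurred in 66.2% of all windows. CpG pairs, which are common in the promoters of widely used genes, numbered 22 in Pgam1, 16 in Ckb and 9 to 21 in the windows of Eno1. They numbered 1 in Pgam2, 2 in Ckmt2, 3 in Eno3, 4 in Pygm, 6 in Ckm and 2 to 10 in the windows of Pfkm (median of all windows, 6). A match is a description of letters and not evidence of binding. No window was held for Ampd1.

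Array values are given as log2 of the intensity computed by the authors, so that a difference of 1 is a doubling of signal. Probe sets differ in brightness, so a gene is compared with itself across groups, and isoforms are compared only by how much each changed. A gene was called changed at an adjusted p under 0.05 in a limma fit to all 12 arrays and all genes. Values after ± are standard errors of that fit unless marked SD, with 3 arrays per group. OFF6 replicate 2 stood apart, with a mean correlation across genes of 0.9911 with its own group and 0.9952 with OFF3, and results for OFF6 are given without it where they change. OFF3 replicate 3 was the highest OFF3 array for all 7 muscle forms, and the 6 rises and 1 fall called at day 3 were also called without it.

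The labelled tissues were checked with fibre markers. All 15 adult fibre markers were lower in TUM than in CTL, with a summed intensity of 31330 to 33470 in TUM, 54000 to 70690 in OFF3, 59810 to 63860 in OFF6 and 115100 to 118500 in CTL. Of 10 embryonic fibre and fusion markers 8 were higher in TUM than in CTL and 1 lower. Over all genes 30.3% were called higher and 45.9% lower in this comparison. In bulk tissue, fewer fibres and less RNA per fibre cannot be told apart. The grafts were placed in host muscle, and the part of host fibres in the tumour values was not tested.

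In tumours at day 0, all 7 muscle forms were lower than in control muscle and both Ckb and the Pgam1 probe set were higher. The muscle forms differed from CTL by a median of -2.81 on the log2 scale. The fall ran from 25.3-fold for Ckmt2, the sarcomeric mitochondrial creatine kinase, to 1.48-fold for the enolase Eno3. Over all genes 45.9% were called lower and 30.3% higher in TUM, with a median difference of -0.15, so most genes differed between these tissues.

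**Figure D1:**
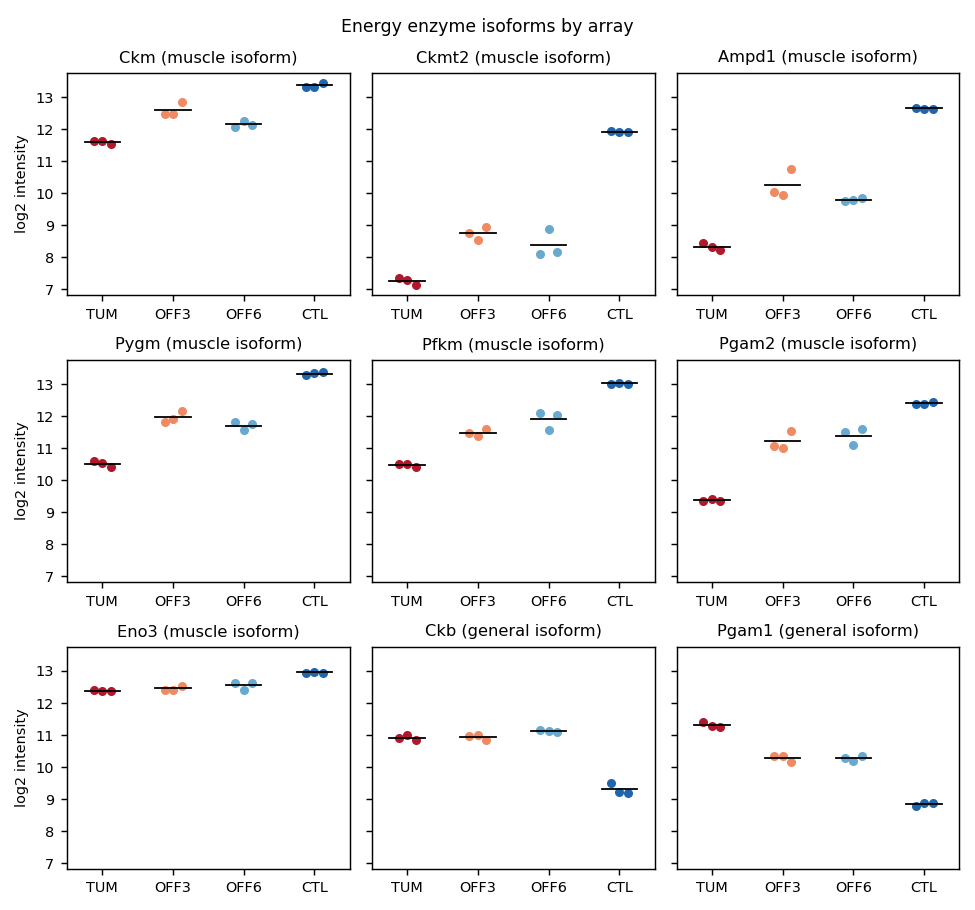
Log2 intensity (y axis) of each isoform in every array, by group (x axis). Points are arrays and lines are means of 3 arrays. The muscle forms lie lowest in TUM, between TUM and CTL off doxycycline, and highest in CTL, with the smallest range for Eno3, while the Pgam1 probe set runs the other way and Ckb lies between 10.85 and 11.16 in all tumours.

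The creatine kinases come first. Ckm, the cytosolic muscle form and abundant in fast fibres, had log2 intensities of 11.62, 11.62 and 11.53 in TUM, 12.49, 12.46 and 12.86 in OFF3, 12.08, 12.27 and 12.14 in OFF6, and 13.33, 13.33 and 13.43 in CTL. No 2 of the 4 groups overlapped, and OFF6 lay between TUM and OFF3. Ckm was 3.42-fold lower in TUM than in CTL (-1.77 ± 0.10, adjusted p = 3.1e-09). The brightest value of any gene was 13.67, so the CTL signal of Ckm stood near the top of the scale, where differences can be compressed. It was 2.01-fold higher in OFF3 than in TUM (1.01 ± 0.10, adjusted p = 7.26e-06) and 1.48-fold higher in OFF6 than in TUM (0.57 ± 0.10, adjusted p = 0.0006).

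Ckmt2, which sits between the mitochondrial membranes and passes ATP's phosphate to creatine, had log2 intensities of 7.34, 7.30 and 7.14 in TUM, 8.78, 8.55 and 8.95 in OFF3, 8.09, 8.87 and 8.16 in OFF6, and 11.93, 11.92 and 11.90 in CTL. Its level in TUM was 3.96% of that in CTL (95% interval 3.07% to 5.11%), and in OFF6 it was 8.56% of that in CTL. OFF3 and OFF6 overlapped through OFF6 replicate 2, the highest OFF6 array. Ckmt2 was 2.83-fold higher in OFF3 than in TUM (adjusted p = 2.72e-05) and 2.16-fold higher in OFF6 than in TUM (1.11 ± 0.17, adjusted p = 0.000258). The day 6 difference was 0.86 without OFF6 replicate 2. Ckmt1, the mitochondrial form of other tissues, had log2 intensities of 5.83 to 6.52 over all arrays and was not called between TUM and CTL (-0.16 ± 0.09, adjusted p = 0.135). It was lower in OFF6 than in CTL (-0.26 ± 0.09, adjusted p = 0.0301), a call lost without OFF6 replicate 2 (-0.24) or 3 (-0.23) or CTL replicate 1 (-0.15).

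Ckb, the cytosolic form of brain, smooth muscle and many dividing cells, had log2 intensities of 10.91, 11.005 and 10.85 in TUM, 10.98, 11.001 and 10.85 in OFF3, 11.16, 11.13 and 11.11 in OFF6, and 9.51, 9.24 and 9.18 in CTL. TUM and OFF3 overlapped, and all tumour arrays lay above all CTL arrays. It was 3.06-fold higher in TUM than in CTL (1.61 ± 0.09, adjusted p = 2.3e-09) and 3.54-fold higher in OFF6 than in CTL (1.82 ± 0.09, adjusted p = 1.19e-09). Ckb was not called at day 3 against TUM (0.02 ± 0.09, 95% interval -0.17 to 0.21) or at day 6 (0.21 ± 0.09, adjusted p = 0.0817, 0.03 to 0.40). At day 6 it passed without CTL replicate 1 (0.21, adjusted p = 0.025), with array weights (0.21) and in a fit of only the 6 arrays (0.21), a range of adjusted p of 0.00441 to 0.252 over all alternatives.

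Osteoclasts are also known to use Ckb, and the tumours held osteoclast-type markers. The summed intensity of 11 such markers was 11300 to 11540 in TUM, 3500 to 3731 in OFF3, 2902 to 3856 in OFF6 and 1830 to 1982 in CTL. The 3856 was OFF6 replicate 2, and the other OFF6 arrays, at 2902 and 2904, lay below all OFF3 arrays. The lowest in CTL was Atp6v0d2, at a mean log2 intensity of 5.19, where the dimmest value of any gene was 3.57. Of these markers 8 were called lower in OFF3 than in TUM and 0 higher, where 16% of all genes were called lower and 13.4% higher. The markers were listed with earlier results of these data known, so their fall is not a separate finding. The part of osteoclasts in the Ckb values was not tested.

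AMP deaminase takes part in the purine nucleotide cycle, which keeps AMP from building up during hard work. Ampd1, the muscle form, had log2 intensities of 8.45, 8.33 and 8.23 in TUM, 10.04, 9.94 and 10.77 in OFF3, 9.76, 9.80 and 9.86 in OFF6, and 12.67, 12.64 and 12.65 in CTL. No groups overlapped. It was 19.9-fold lower in TUM than in CTL (95% interval 15.6 to 25.4, adjusted p = 1.01e-10). It was 3.77-fold higher in OFF3 than in TUM (1.91 ± 0.16, adjusted p = 2.51e-06) and 2.77-fold higher in OFF6 than in TUM (1.47 ± 0.16, adjusted p = 1.79e-05). It still stood 7.20-fold below CTL at day 6.

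Both other AMP deaminase genes behaved differently from Ampd1. Ampd2, the form of liver and many other tissues, had log2 intensities of 9.23, 9.28 and 9.18 in TUM and 7.12, 7.44 and 7.32 in CTL, 3.83-fold higher in TUM (adjusted p = 6.59e-10). Off doxycycline it differed from TUM by -0.26 at day 3 (adjusted p = 0.0439) and by -0.24 at day 6 (adjusted p = 0.0632). The day 3 call was lost in 10 of 20 alternatives, and all 20 gave values of -0.30 to -0.19 (adjusted p of 0.00153 to 0.177). Those that lost it included leaving out any TUM array, OFF3 replicates 2 or 3, OFF6 replicates 1 or 3, or CTL replicate 3. The day 6 difference was called without OFF3 replicate 3 (adjusted p = 0.0419) or CTL replicate 1 (adjusted p = 0.0343) or 2 (adjusted p = 0.0488), within 0.00859 to 0.16 over all alternatives. Ampd3, the form first known from red blood cells, differed by 0.13 between TUM and CTL (adjusted p = 0.0785). It was called without OFF6 replicate 2 (0.13, adjusted p = 0.0432) or CTL replicate 3 (0.16, adjusted p = 0.0491), and its sign turned under quantile normalisation (-0.029) and with centred arrays (-0.013), with adjusted p of 0.0432 to 0.856 over all alternatives. Against TUM, Ampd3 differed by -0.10 at day 3 (adjusted p = 0.27) and by 0.17 at day 6 (adjusted p = 0.0551). The day 6 difference was called without OFF6 replicate 2 (0.22, adjusted p = 0.0106), within 0.000405 to 0.206 over all alternatives. Ampd3 was higher in OFF6 than in CTL (0.29 ± 0.06, adjusted p = 0.0011), a call lost with centred arrays (0.11).

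Glycogen phosphorylase releases glucose phosphate from glycogen. Pygm, the muscle form, which is defective in McArdle disease in humans, had log2 intensities of 10.59, 10.55 and 10.40 in TUM, 11.82, 11.91 and 12.15 in OFF3, 11.81, 11.55 and 11.75 in OFF6, and 13.27, 13.35 and 13.36 in CTL. No groups overlapped, and OFF6 lay just below OFF3. Pygm was 7.03-fold lower in TUM than in CTL (-2.81 ± 0.09, adjusted p = 4.17e-11), with CTL again near the top of the scale. It rose over TUM 2.73-fold at day 3 (1.45 ± 0.09, adjusted p = 3.47e-07) and 2.28-fold at day 6 (1.19 ± 0.09, adjusted p = 1.13e-06).

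Pygb, the brain form that is also found in fetal tissue, was 2.52-fold higher in TUM than in CTL (1.33 ± 0.08, adjusted p = 7.59e-09). It differed from TUM by 0.08 ± 0.08 at day 3 (adjusted p = 0.52) and fell by 0.32 on the log2 scale at day 6 (± 0.08, adjusted p = 0.00823). Pygl, the liver form, had log2 intensities of 6.08 to 6.72 over all arrays and was lower in TUM than in CTL (-0.49 ± 0.11, adjusted p = 0.00189).

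Phosphofructokinase sets the pace of glycolysis. Pfkm, the muscle subunit, had log2 intensities of 10.51, 10.50 and 10.42 in TUM, 11.46, 11.38 and 11.59 in OFF3, 12.09, 11.57 and 12.05 in OFF6, and 13.00, 13.05 and 13.01 in CTL. OFF6 replicates 1 and 3 lay above all OFF3 arrays, and OFF6 replicate 2 lay just below the highest of them. Pfkm was 5.84-fold lower in TUM than in CTL (-2.55 ± 0.11, adjusted p = 4.68e-10). It was 2.01-fold higher in OFF3 than in TUM (1.01 ± 0.11, adjusted p = 2.7e-05) and 2.69-fold higher in OFF6 than in TUM (1.43 ± 0.11, adjusted p = 1.13e-06).

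Pfkl, the liver subunit, moved against Pfkm in every comparison with TUM. It had log2 intensities of 10.21, 10.12 and 10.17 in TUM, 8.73, 8.89 and 8.34 in OFF3, 8.97, 8.42 and 8.91 in OFF6, and 8.19, 8.18 and 8.27 in CTL. All arrays off doxycycline lay below all TUM arrays, 2.86-fold lower at day 3 (-1.51 ± 0.15, adjusted p = 7.76e-06) and 2.64-fold lower at day 6 (-1.40 ± 0.15, adjusted p = 1.17e-05). Pfkp, the platelet subunit, was 1.74-fold higher in TUM than in CTL (0.80 ± 0.09, adjusted p = 5.93e-06) and differed from TUM by -0.21 at day 3 (adjusted p = 0.129), a difference called without OFF3 replicate 1 (-0.28, adjusted p = 0.0428) or OFF6 replicate 2 (-0.21, adjusted p = 0.0394), within 0.000269 to 0.355 over all alternatives. At day 6 it was higher than in TUM by 0.31 ± 0.09 (adjusted p = 0.0221). That call was lost without TUM replicate 1 (0.30) or 2 (0.30) or OFF6 replicate 1 (0.26) or 3 (0.25), and with centred arrays (0.27).

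At the step of phosphoglycerate mutase, Pgam2 rose off doxycycline and the Pgam1 probe set fell. Pgam2, the muscle form, had log2 intensities of 9.34, 9.43 and 9.36 in TUM, 11.07, 11.01 and 11.55 in OFF3, 11.50, 11.10 and 11.59 in OFF6, and 12.38, 12.38 and 12.43 in CTL. OFF3 and OFF6 overlapped, and both lay wholly between TUM and CTL. Pgam2 was 8.10-fold lower in TUM than in CTL (-3.02 ± 0.14, adjusted p = 6.57e-10). It was 3.57-fold higher in OFF3 than in TUM (1.83 ± 0.14, adjusted p = 1.11e-06) and 4.05-fold higher in OFF6 than in TUM (2.02 ± 0.14, adjusted p = 4.13e-07).

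The gene Pgam1 encodes the form of most tissues and of cancer cells. Its annotated probe set had log2 intensities of 11.40, 11.29 and 11.25 in TUM, 10.36, 10.35 and 10.15 in OFF3, 10.30, 10.20 and 10.36 in OFF6, and 8.79, 8.87 and 8.88 in CTL. It was 5.51-fold higher in TUM than in CTL (2.46 ± 0.07, adjusted p = 1.89e-11). Off doxycycline it was 2.03-fold lower than in TUM at day 3 (-1.02 ± 0.07, adjusted p = 7.85e-07) and 2.04-fold lower at day 6 (-1.03 ± 0.07, adjusted p = 5.99e-07). OFF3 and OFF6 overlapped and differed by -0.0013 ± 0.07 (95% interval -0.16 to 0.16). RefSeq lists the pseudogene copies Pgam1-ps1 on chromosome 11 and Pgam1-ps2 on chromosome 7. The gene itself lies on chromosome 19. Of the 20 probe sets nearest to this one by ID number, 19 belong to genes of chromosome 7 and 0 to genes of chromosome 19. For each of the 15 other isoforms checked, 17 to 20 of the 20 nearest belong to the gene's own chromosome. The nearest ID below is that of Sptbn4 (chr7:27356383-27447704) and the nearest above that of Pld3 (chr7:27531367-27553229), and Pgam1-ps2 (chr7:27468886-27470619, GRCm38.p6) lies between these genes. Probe positions were not given, so the ID order does not settle the target, and signal of Pgam1 and of Pgam1-ps2 cannot be told apart. Markers of dividing cells moved the same way. All 5 measured were lower in OFF3 than in TUM, where 16% of all genes were called lower. Their summed intensities were 6353 to 6727 in TUM, 1299 to 1846 in OFF3, 1438 to 1813 in OFF6 and 333.9 to 451.7 in CTL. The part of dividing cells in the values of this probe set was not tested.

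Of the muscle forms, enolase had the smallest fitted differences. Eno3, the muscle form, had log2 intensities of 12.39, 12.38 and 12.38 in TUM, 12.40, 12.41 and 12.55 in OFF3, 12.63, 12.42 and 12.61 in OFF6, and 12.95, 12.96 and 12.95 in CTL. TUM lay just below OFF3 and OFF6 with no overlap, OFF3 and OFF6 overlapped, and CTL lay above all tumours. Its lowest array percentile among all genes was 99.54 in OFF3, against 99.56 in TUM and 99.84 in CTL, a range where differences can be compressed. Eno3 was 1.48-fold lower in TUM than in CTL (-0.57 ± 0.07, adjusted p = 6.33e-06), -0.71 to -0.44 over all alternatives. Against TUM it was not called at day 3 (0.07 ± 0.07, adjusted p = 0.535) or at day 6 (0.17 ± 0.07, adjusted p = 0.0761). Without OFF6 replicate 2 the day 6 difference was 0.24 with adjusted p = 0.00904 (0.000264 to 0.253 over all alternatives). Eno2, the neuronal enolase, had log2 intensities of 6.17 to 7.05 over all arrays and was higher in OFF3 than in TUM by 0.29 ± 0.08 (adjusted p = 0.0183).

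In tumours 3 days off doxycycline, 6 of the 9 members had risen over TUM, all of them muscle forms, the Pgam1 probe set had fallen and 2 were not called. Over all genes 13.4% were called higher and 16% lower at this time. At 6 days the counts were again 6 higher and 1 lower, where 14.9% of all genes were called higher and 16.6% lower, and without OFF6 replicate 2 they were 7 and 1. The median difference of the 7 muscle forms was 1.45 at day 3 and 1.19 at day 6, and that of all genes was 0.02 and 0.05. OFF3 and OFF6 were compared with the same TUM arrays.

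**Figure D2:**
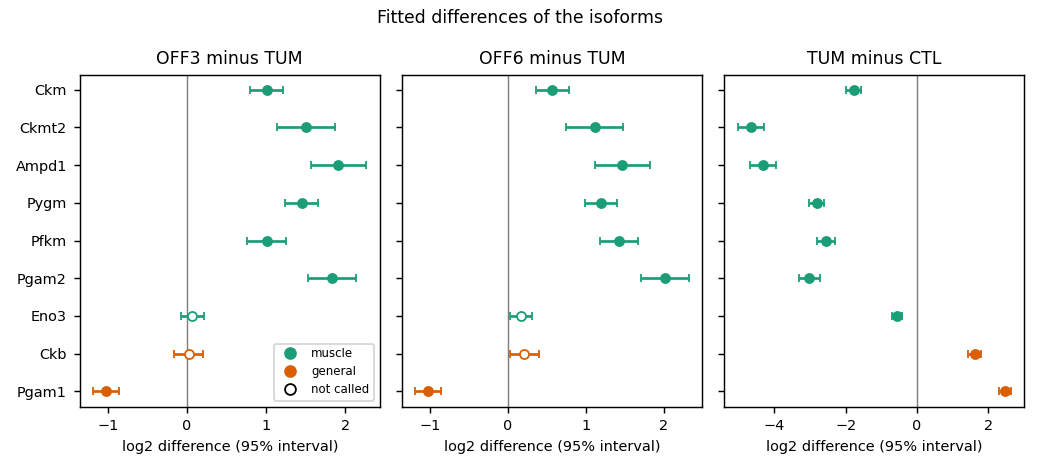
Fitted log2 difference (x axis, with 95% interval) of each isoform (y axis) for OFF3 minus TUM, OFF6 minus TUM and TUM minus CTL. Green points are muscle forms, orange points general forms, and open points were not called. Of the muscle forms, Eno3 alone is not called off doxycycline.

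At day 6 no muscle form had reached the control level. All 7 were lower in OFF6 than in CTL, and Ckb and the Pgam1 probe set were higher, where 36.1% of all genes were called lower and 28.1% higher. The gaps ran from 11.7-fold for Ckmt2 (-3.55 ± 0.17) and 7.20-fold for Ampd1 (-2.85 ± 0.16) to 2.17-fold for Pfkm (-1.12 ± 0.11) and 1.32-fold for Eno3 (-0.40 ± 0.07). Pgam2 in OFF6 was at 49.97% of its CTL level (95% interval 40.5% to 61.7%). Of the log2 gap between TUM and CTL, Pgam2 had closed 66.8% at day 6, Pfkm 56.1%, Pygm 42.4%, Ampd1 34.0%, Ckm 32.1%, Eno3 29.7% and Ckmt2 23.9%. At day 3 the shares were 60.8% for Pgam2, 39.5% for Pfkm, 51.5% for Pygm, 44.3% for Ampd1, 56.9% for Ckm, 11.9% for Eno3 and 32.2% for Ckmt2. Pygm, Ampd1, Ckm and Ckmt2 thus had larger shares at day 3 than at day 6. Of these only Ckm was called between OFF6 and OFF3 in the fit to all arrays. The adjusted p was 0.11 for Pygm, 0.104 for Ampd1 and 0.18 for Ckmt2. The Pgam1 probe set had closed 41.6% from above at both times. The mean of Ckb lay farther from CTL than in TUM at both times. Ckb was not called against TUM at day 3 (adjusted p = 0.908) or at day 6 (adjusted p = 0.0817). Without OFF6 replicate 2 the day 6 shares were 71.7% for Pgam2, 62.6% for Pfkm, 41.5% for Eno3 and 18.5% for Ckmt2. The largest adjusted p of the 9 differences between OFF6 and CTL was 0.000195.

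Between day 3 and day 6, most members were not called. Pfkm was higher in OFF6 than in OFF3 (0.42 ± 0.11, adjusted p = 0.0349) and Ckm was lower (-0.44 ± 0.10, adjusted p = 0.016), so 1 member of 9 was called in each direction, beside 6.05% of all genes higher and 4.38% lower. Neither passed in a fit of only the 6 arrays (adjusted p = 0.182 for Pfkm and 0.127 for Ckm). The Pfkm call was also lost when any of 9 arrays was left out, all but OFF3 replicate 3, OFF6 replicate 2 and CTL replicate 1 (0.33 to 0.42, adjusted p of 0.0503 to 0.166). The Ckm call was lost without OFF6 replicate 1 (-0.40, adjusted p = 0.08) or 3 (-0.43, adjusted p = 0.0753), within 0.000113 to 0.127 over all alternatives. Without OFF6 replicate 2, Ckmt2 was also lower in OFF6 than in OFF3 (-0.64, adjusted p = 0.000663, within 0.000663 to 0.548 over all alternatives), Ckm differed by -0.49 and Pfkm by 0.59. Embryonic fibre markers were called higher in OFF6 than in OFF3 for 7 of 10 genes and lower for 0, with the perinatal myosin Myh8 up by 1.40 ± 0.17 (adjusted p = 0.00117).

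The balance of each isoform pair was followed as the log2 signal of the muscle form minus that of the general form on the same array. Brightness differences between probe sets cancel when this value is compared between groups. With 3 arrays against 3, the exact permutation test cannot go below p = 0.1, so the 6 arrays off doxycycline were set against the 3 TUM arrays, and the 9 tumour arrays against the 3 CTL arrays. The muscle minus general value was higher off doxycycline than in TUM, and lower in tumours than in CTL, in all 9 pairs. Of these, 1 rests on the Pgam1 probe set. Such shifts were not counted for pairs of other genes, so 9 of 9 has no share to stand beside. Of all single genes, 13.4% were called higher and 16% lower in OFF3 against TUM. In TUM against CTL, 30.3% were called higher and 45.9% lower. A shift does not show that the general form moved: Ckb, Ckmt1, Ampd3 and Pygl were not called against TUM at either time in the fit to all 12 arrays. Without OFF6 replicate 2, Ampd3 was called higher at day 6 (0.22, adjusted p = 0.0106). Ckmt1 and Pygl were dim, with a lowest array percentile of 35.21 to 45.37 among all genes in the 4 groups, and Pygl was itself lower in TUM than in CTL. Each pair had the smallest two-sided p that these exact permutation tests can give, 0.0238 for the first contrast and 0.00909 for the second. The values were the same after adjustment over the 9 pairs. Pairs that share Ampd1, Pygm or Pfkm are not independent. With any 1 TUM array left out, the smallest p the first contrast allows is 0.0714, and every pair had that value.

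Pfkm minus Pfkl shifted by 2.67 off doxycycline, the largest of the 8 pairs that do not use the Pgam1 probe set. It was 2.74, 2.49 and 3.25 in OFF3 and 3.11, 3.15 and 3.14 in OFF6, against 0.30, 0.38 and 0.24 in TUM. In that pair Pfkm rose and Pfkl fell. The value with the Pgam1 probe set, whose target is uncertain, shifted by 2.95. Pgam2 minus Pgam1 was 0.71, 0.66 and 1.40 in OFF3 and 1.20, 0.90 and 1.23 in OFF6, against -2.05, -1.86 and -1.88 in TUM. Ckm minus Ckb was 1.51, 1.46 and 2.01 in OFF3 and 0.92, 1.14 and 1.03 in OFF6, against 0.71, 0.62 and 0.68 in TUM. Its shift was 0.99 at day 3, 0.36 at day 6 and 0.67 for both together. Ckm was called at both times and Ckb at neither. The other pairs shifted by 1.16 (Pfkm minus Pfkp) to 1.94 (Ampd1 minus Ampd2).

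**Figure D3:**
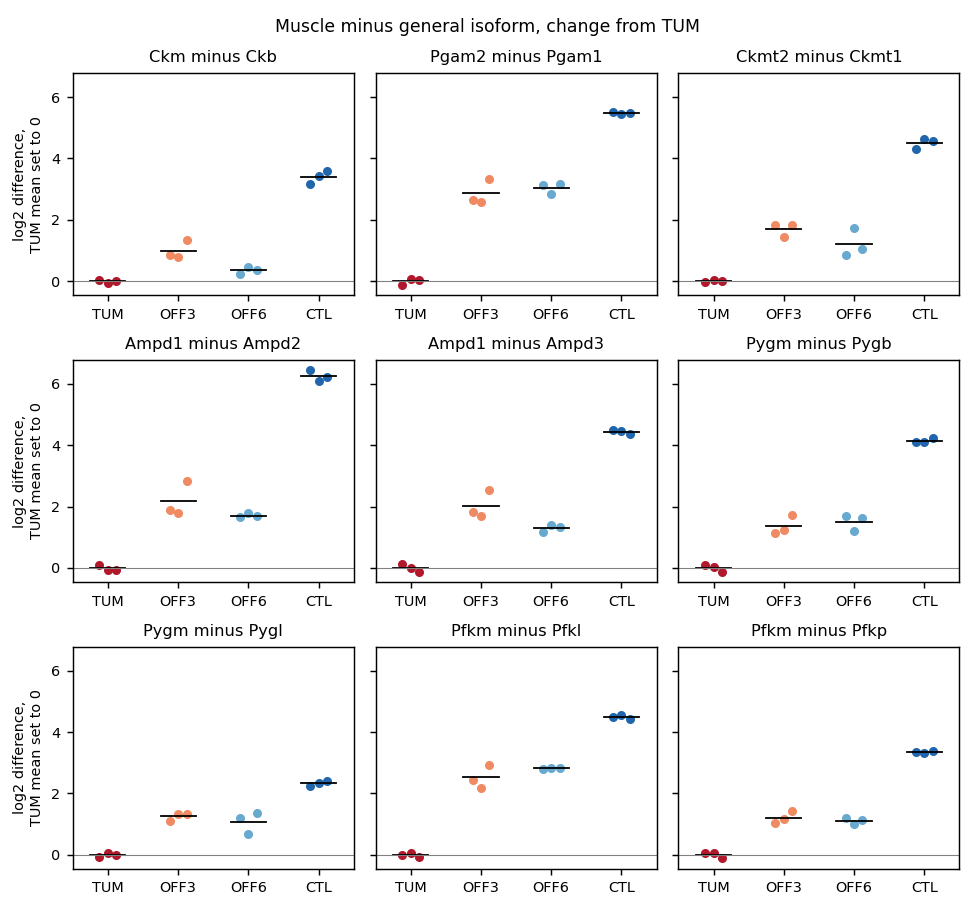
Log2 difference of the muscle minus the general isoform (y axis, with the TUM mean set to 0) by group (x axis). Points are arrays and lines are means of 3 arrays. All pairs lie above TUM off doxycycline and below CTL, and Pgam2 minus Pgam1, which rests on the probe set of uncertain target, shows the largest rise of the mean, followed by Pfkm minus Pfkl.

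In tumours against CTL, the pair balance was lower by 4.96 for Ampd1 minus Ampd2, 3.51 for Pgam2 minus Pgam1 and 2.94 for Ckm minus Ckb. At day 0 alone, Pgam2 minus Pgam1 lay 5.48 below CTL, a 44.6-fold change of the balance, and at day 6 it lay 2.44 below. The pair balance in OFF6 did not overlap that of CTL for any of the 9 pairs. Of all single genes, 36.1% were called lower and 28.1% higher in OFF6 than in CTL, which is a different measure. How often pairs of other genes separate from TUM or CTL in this way was not counted.

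Other enzymes of creatine, purine, glycogen and glucose metabolism were listed as 37 genes, of which 33 were measured. The counterparts above are among them. In TUM, 9 were higher and 22 lower than in CTL, where 30.3% of all genes were called higher and 45.9% lower. Phosphorylase kinase, which switches Pygm on, was lower in its muscle subunits Phkg1 (-5.22 ± 0.20, adjusted p = 1.15e-10) and Phka1 (-3.68 ± 0.15, adjusted p = 1.93e-10). Fbp2, the muscle form of a gluconeogenic enzyme, was lower as well (-3.90 ± 0.09, adjusted p = 3.02e-12). Gatm, which makes the precursor of creatine, was higher in TUM (3.38 ± 0.09, adjusted p = 9.47e-12), as were Pfkl (1.95 ± 0.15) and Ampd2 (1.94 ± 0.09).

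In OFF3, 16 of the 33 were higher and 6 lower than in TUM (3 lower without TUM replicate 2), and in OFF6 18 were higher and 4 lower. Over all genes 13.4% were called higher and 16% lower in OFF3, and 14.9% higher and 16.6% lower in OFF6. Phkg1 (1.79 ± 0.20), Phka1 (1.09 ± 0.15) and Gamt (1.00 ± 0.10), which completes creatine, rose most at day 3. The brain aldolase Aldoc (-2.05 ± 0.11), Pfkl and the glycolytic Pgk1 (-0.51 ± 0.07) fell most, with a largest adjusted p of these 6 of 0.000178. At day 6 Gamt (1.19 ± 0.10), the glycogen synthase Gys1 (1.05 ± 0.15) and the adenylate kinase Ak1 (0.75 ± 0.08) rose most, and Aldoc (-1.92 ± 0.11), Pfkl and Pgk1 (-0.34 ± 0.07) fell most. The median of the 33 genes was 0.20 at day 3 and 0.26 at day 6. In OFF6 against CTL, 10 were higher and 22 lower, where 28.1% of all genes were called higher and 36.1% lower. They were led by Gatm (3.26 ± 0.09), Ampd2 (1.70 ± 0.09) and Phka2 (1.20 ± 0.06), the liver subunit of phosphorylase kinase, above CTL. Below it were Phkg1 (-4.49 ± 0.20), Fbp2 (-3.87 ± 0.09) and Phka1 (-3.25 ± 0.15).

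**Figure D4:**
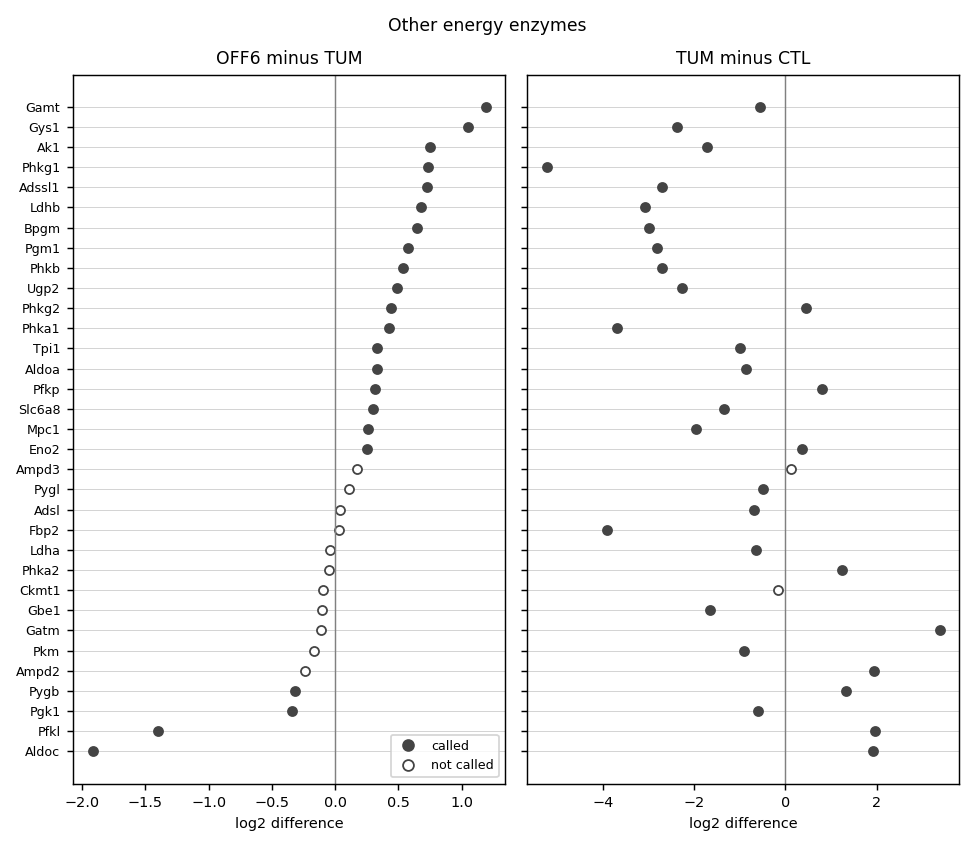
Log2 difference (x axis) of the 33 other energy enzymes (y axis, ordered by OFF6 minus TUM) for OFF6 minus TUM and TUM minus CTL. Filled points were called and open points were not. Aldoc and Pfkl fall most off doxycycline, and both were higher in TUM than in CTL.

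Genes with the profile most like a member were sought over all 12 arrays, after centring each gene on its mean, by the root mean square difference in log2. For Ckm they were Akap12 (0.10), Pdp1 (0.10) and Per3 (0.14), against a median of 0.62 over all genes. For Pgam2 they were the fast troponin Tnnc2 (0.12), Hjv (0.16) and Apobec2 (0.20), against a median of 1.06. For Ckb they were Tapbpl (0.08), Cd276 (0.11) and Cmip (0.11), against a median of 0.80. For the Pgam1 probe set they were the ribosome factor Nop58 (0.10), the replication helicase subunit Mcm4 (0.11) and Syde1 (0.11), against a median of 0.94. Likeness over these 4 groups describes the arrays and says nothing of shared control.

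Markers of other cells also moved. In OFF6 against TUM, 14.9% of all genes were called higher and 16.6% lower. Here 14 of 15 adult fibre markers rose and 0 fell, and 10 of 10 embryonic fibre markers rose. Of 9 fibroblast markers 7 rose and 1 fell, of 7 endothelium markers 5 rose, and of 8 smooth muscle and pericyte markers 5 rose and 1 fell. Of 11 osteoclast markers 10 fell, of 10 macrophage markers 1 fell and 0 rose, and of 5 measured Schwann cell and neural markers 0 were called. Dividing cell markers fell in 5 of 5. The summed fibroblast signal was 19010 to 26720 in OFF6 and 15700 to 16190 in TUM. The part of these cells in the isoform values was not tested.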

How the data were processed

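Total RNA of 12 samples was measured as biotin-bearing cRNA on mouse arrays, per the labels' protocols. The authors deposited a linear intensity for each probe set, obtained with RMA, per the submitters' processing notes; its version is not given in the sources used here. Array methods of this kind can compress differences of very bright and very dim genes. Over the genes used, array medians ran from 6.97 to 7.20 in log2.

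Log2 was taken of 34760 probe sets. Of these, 21640 had 1 gene symbol and were used, 1321 had several and 11799 had none. The probe set with the highest mean was kept per gene, leaving 19937 genes with no filter. Each member and each listed counterpart had 1 probe set. As a check of targets, the 20 probe sets nearest by ID number were placed by the RefSeq chromosome of their genes. All 12 arrays, with 1 mean per group, were fitted with limma 3.58.1 (lmFit and eBayes) in R 4.3.3, with Benjamini-Hochberg adjustment over all genes in each of 5 comparisons. The median standard error was 0.086 for OFF3 minus TUM. Precision is limited by having 3 arrays per group. As the labels name no separate animals, the p-values cover the spread among these samples, which may be technical. Isoform pairs were tested by exact two-sided permutation. Named genes were all members, their counterparts, the 3 largest called changes each way of the other energy enzymes per comparison, the 3 most similar profiles, and leading markers. Of 120 genes in 10 lists, 113 were measured. The members and lists were chosen with earlier results of these data known. Alternatives were probe set averaging, other scalings, a filter, other variance models, a replicate block, fewer arrays, and leaving out each array. Replicate numbers are shared by the groups, but same-numbered arrays deviated together (correlation over 0.1) in only 3 of 18 pairs (-0.387 to 0.249), so no pairing was used. The fit was also run on simulated data with independent noise for each gene, which does not test how well it suits these arrays. Figures were drawn with matplotlib 3.10.9 in Python 3.11.15.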

Additional observations from a re-analysis of the deposited data

Results flagged for a closer look

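The changes from TUM differed between day 3 and day 6 for 9 of the named enzymes, as tested by the fitted difference OFF6 minus OFF3. Over all genes 6.05% were called higher and 4.38% lower in this comparison. Other energy enzymes with the largest called changes here were named for that reason, so the 9 are a list and not a rate. Among members, Ckm stood at -0.44 and Pfkm at 0.42. Among counterparts, Ampd3 stood at 0.27 (adjusted p = 0.0185), Pygb at -0.40 (adjusted p = 0.0106) and Pfkp at 0.52 (adjusted p = 0.00692). The calls of Ampd3 and Pygb were lost without OFF6 replicate 1 (0.23 and -0.37) or replicate 3 (0.26 and -0.36), and that of Ampd3 also without OFF3 replicate 1 (0.26) or 2 (0.27).

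Among the other enzymes, the phosphorylase kinase subunits Phkg1 (-1.05, adjusted p = 0.00852) and Phka1 (-0.66, adjusted p = 0.0175) were lower in OFF6 than in OFF3. The heart-type lactate dehydrogenase Ldhb (0.47, adjusted p = 0.00458) and the purine enzyme Adsl (0.29, adjusted p = 0.0197) were higher. The Phka1 call was lost without OFF6 replicate 1 (-0.61) or 3 (-0.62), and the Adsl call without these (0.27 and 0.23) or OFF3 replicate 2 (0.30). In a fit of only the 6 arrays compared, none of the 9 passed.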

How the results depend on the processing

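Counts of members called against TUM, for OFF3 and OFF6, kept within 1.5 times of the reported count under every alternative. So did those against CTL, for TUM and OFF6. All 261 recomputed pair shifts kept their direction, but not all of them could have changed. The replicate block alters the p of a pair shift and not its size. Centring cancels in muscle minus general on the same array, and averaging cannot act where a gene has 1 probe set. Counts between OFF6 and OFF3 did not hold. Members higher numbered 0 with centred arrays, 3 with array weights and 0 in a fit of only the 6 arrays, and members lower numbered 3 with array weights and 0 with the 6 arrays. With 1 array left out, members higher ran from 0 to 1 and members lower from 0 to 2. Other energy enzymes higher in OFF6 than in OFF3 numbered 17 with array weights, 0 with the 6 arrays and 2 to 9 with 1 array left out. Those lower numbered 5, 0 and 1 to 3. Other energy enzymes lower in OFF3 than in TUM numbered 11 with array weights and 3 to 7 with 1 array left out. The cause was not tested, except that fewer arrays leave fewer degrees of freedom.

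Over all genes, array weights called 11175 genes for OFF3 and 10545 for OFF6 against TUM, where 5868 and 6279 were reported. For OFF6 against OFF3, 2080 were reported, 8424 were called with array weights, 30 with the 6 arrays, 4874 without OFF6 replicate 2, and 990, 905, 521 and 452 without OFF3 replicate 1, OFF3 replicate 2, OFF6 replicate 1 and OFF6 replicate 3. A filter on low values left 8402 for TUM and 7924 for OFF6 against CTL, where 15199 and 12790 were reported, as it tested fewer genes. Centring arrays moved the all-gene median of TUM minus CTL to -0.29 from -0.15 and quantile normalisation moved it to -0.04. For OFF6 minus CTL these medians were -0.28 and -0.04, against -0.09 as reported. Centring left 27.2% of calls higher for OFF6 against CTL, where 43.8% were reported.

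Single differences near 0 changed sign without being called. Ckb at day 3 against TUM was -0.013 with centred arrays and ran from -0.017 to 0.068 with 1 array left out. Pygl at day 6 against TUM was -0.10 with array weights and ran from -0.021 to 0.23. For OFF6 minus OFF3, values with 1 array left out ran from -0.072 to 0.042 for Pgam1, -0.051 to 0.067 for Ampd2, -0.21 to 0.045 for Pygl and -0.042 to 0.29 for Pfkl. Ampd3 in TUM against CTL was -0.029 with quantile normalisation and -0.013 with centred arrays.

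With the replicate block, the day 3 call of Ampd2 against TUM was lost (-0.26, adjusted p = 0.067) and no call of a member changed. The pair shifts off doxycycline are unchanged in size under the block (Ckm minus Ckb 0.67, Pgam2 minus Pgam1 2.95, Ckmt2 minus Ckmt1 1.45, Ampd1 minus Ampd2 1.94, Ampd1 minus Ampd3 1.66, Pygm minus Pygb 1.44, Pygm minus Pygl 1.17, Pfkm minus Pfkl 2.67, Pfkm minus Pfkp 1.16), but no longer passed, since 0.0741 is the smallest exact p that 3 blocks allow. With 1 array left out, the shifts ran from 0.54 to 0.76, 2.87 to 3.02, 1.38 to 1.57, 1.76 to 1.998, 1.48 to 1.75, 1.38 to 1.495, 1.14 to 1.27, 2.62 to 2.77 and 1.11 to 1.196 in the same order of pairs. Those without a TUM array did not pass, as 0.0714 is the smallest p then allowed.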
